A study of Mus musculus with 4 samples.

Results

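The Atf4 stress response and the amino acid transport genes that go with it were followed across 4 expression arrays of mouse embryonic stem cells. The genes were taken from a list of 35 symbols, and every probe set annotated with one of them and no other gene was used. This gave 73 probe sets for 34 of the 35 genes, out of 18194 genes on the array with such a probe set. Pycr1, a proline synthesis enzyme, had none and was not analysed here. Where a gene had several probe sets, the one with the highest mean over the 4 arrays stood for it. By role, the 34 genes comprised 7 transcription factors, 6 feedback regulators, secreted factors and a receptor, 12 enzymes of amino acid and one-carbon metabolism and 9 amino acid transporters.

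The cells were murine embryonic stem cells (CM7/1) that carried an inducible Hey1 or Hey2, repressors that act downstream of Notch, and they are called the Hey2 line and the Hey1 line here. The groups were the Hey2 line with 1000 ng/ml doxycycline for 48 h (Hey2 induced), the Hey2 line without it (Hey2 uninduced), the Hey1 line with the same doxycycline treatment (Hey1 induced) and the Hey1 line without it (Hey1 uninduced). Each group was 1 array, so differences between arrays lack any replicate check, carry no p-value and are limited in precision by that number. No group received doxycycline without a Hey transgene or carried no transgene, so an effect of doxycycline and an effect of the Hey factor cannot be told apart.

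When amino acids run short, haem is lacking, double-stranded RNA appears or proteins misfold, kinases phosphorylate the translation factor eIF2alpha, and most protein synthesis slows. Upstream reading frames in the Atf4 messenger then let more Atf4 protein be made, so Atf4 is controlled in large part at translation, which an RNA array does not see. Atf4 pairs with C/EBP and other bZIP factors and activates genes for amino acid import, amino acid synthesis and stress signalling, together with genes that later shut the response down.

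The array values are log2 probe set summaries, so a difference of 1 is a 2-fold change. The Hey1 probe set did not go with its label: it read 6.25 in Hey2 induced and 6.72 in Hey2 uninduced cells, and 6.51 in Hey1 induced and 6.73 in Hey1 uninduced cells. The Hey2 probe set read 4.34 in Hey2 induced and 4.25 in Hey2 uninduced cells, and 4.51 in Hey1 induced and 4.84 in Hey1 uninduced cells, below the level filter defined next. No source used here says whether either probe set reads the introduced transcript. Every difference below is the value labelled induced minus the uninduced value, within a line unless another array is named. The stem cell label went with its markers: all 10 stem cell markers were past the level filter, a mean at or above 6.05, the median of all values, and their lowest value on any array was 10.89. Of 9 fibroblast markers 2 passed it, with summed log2 values of 47.3 in Hey2 induced, 48.3 in Hey2 uninduced, 49.5 in Hey1 induced and 49.0 in Hey1 uninduced cells. Of 8 endoderm markers 3 passed, and of 9 mesoderm and neural markers 8 passed. The sums over the mesoderm and neural markers were 62.2 in Hey2 induced, 65.0 in Hey2 uninduced, 63.1 in Hey1 induced and 63.8 in Hey1 uninduced cells. By gene, the endoderm marker Sox7 differed between induced and uninduced by 1.18 in the Hey2 and 0.48 in the Hey1 line. The endoderm list did not go the way of Sox7, with medians of -0.13 in the Hey2 and -0.04 in the Hey1 line. In each line 3 of its 8 genes were positive, where 43.4% of all genes in the Hey2 and 47.9% in the Hey1 line were. The neural marker Sox1 differed by -1.07 in the Hey2 and -0.78 in the Hey1 line. Both Sox7 and Sox1 were past 2-fold in the Hey2 line. The 3' minus 5' reading of the Tfrc control, a sign of RNA quality, was 0.96 in Hey2 induced, 0.67 in Hey2 uninduced, 0.84 in Hey1 induced and 0.95 in Hey1 uninduced cells. In the same order it was 1.56, 1.33, 1.43 and 1.38 for Pcx, 0.42, 0.39, 0.51 and 0.48 for Actb, and 0.03, 0.01, 0.04 and 0.04 for Gapdh. Each of these controls read higher in Hey2 induced than in Hey2 uninduced cells. All but Tfrc also did so in the Hey1 line. The part of these cell type and RNA quality values in the results below was not tested.

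Most genes of the response read higher on the arrays labelled induced, by small amounts, and more so in the Hey2 line. In the Hey2 line 29 of the 34 genes had a positive difference, where 43.4% of all genes did, and their median difference was 0.30 on the log2 scale, against -0.04 over all genes. In the Hey1 line 23 of the 34 were positive, where 47.9% of all genes were, and the median was 0.13, against -0.01 over all genes. In these bulk samples, fewer cells of a type and less RNA per cell cannot be told apart. By the probe sets used, no member was 2-fold higher or lower in either line. Of all genes, 0.528% were 2-fold higher and 0.165% lower in the Hey2 line, and 0.363% and 0.0275% in the Hey1 line. Another Vldlr probe set above the level filter differed by 1.52 in the Hey2 line, past 2-fold, and by 0.61 in the Hey1 line. At 1.5-fold, 5 members were higher in the Hey2 line (Pck2, Trib3, Vldlr, Atf3 and Slc7a11), where 2.56% of all genes were, and 0 in the Hey1 line, where 1.64% were. At 1.5-fold lower stood 0 members in either line, against 2.13% of all genes in the Hey2 and 0.572% in the Hey1 line. Set against the uninduced array of the other line, 5 members were 1.5-fold higher for the Hey2 induced array (Atf5, Cebpb, Slc1a5, Slc7a11 and Trib3). For the Hey1 induced array 2 were, Ddit4 and Nupr1. These pairs also carry the difference between the lines, and the share of all genes was not counted for them. Between the uninduced arrays alone, 3.36% of all genes were 1.5-fold higher and 3.42% lower in the Hey2 line. At 1.25-fold, a size chosen after the values were seen, 15 members were higher in the Hey2 and 5 in the Hey1 line, against 8.61% and 6.36% of all genes. On the lower side at 1.25-fold stood Slc38a2 and Slc7a3 in each line, where 12.1% of all genes in the Hey2 and 4.61% in the Hey1 line were as low. Of the 34 members 32 passed the level filter, all but Slc7a11 and Fgf21. Over the 6912 genes with a mean at or above the 75th percentile of all values, the median difference was -0.01 in the Hey2 and -0.02 in the Hey1 line. The plot of values by array shows both arrays of each line for every member.

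**Figure D1:**
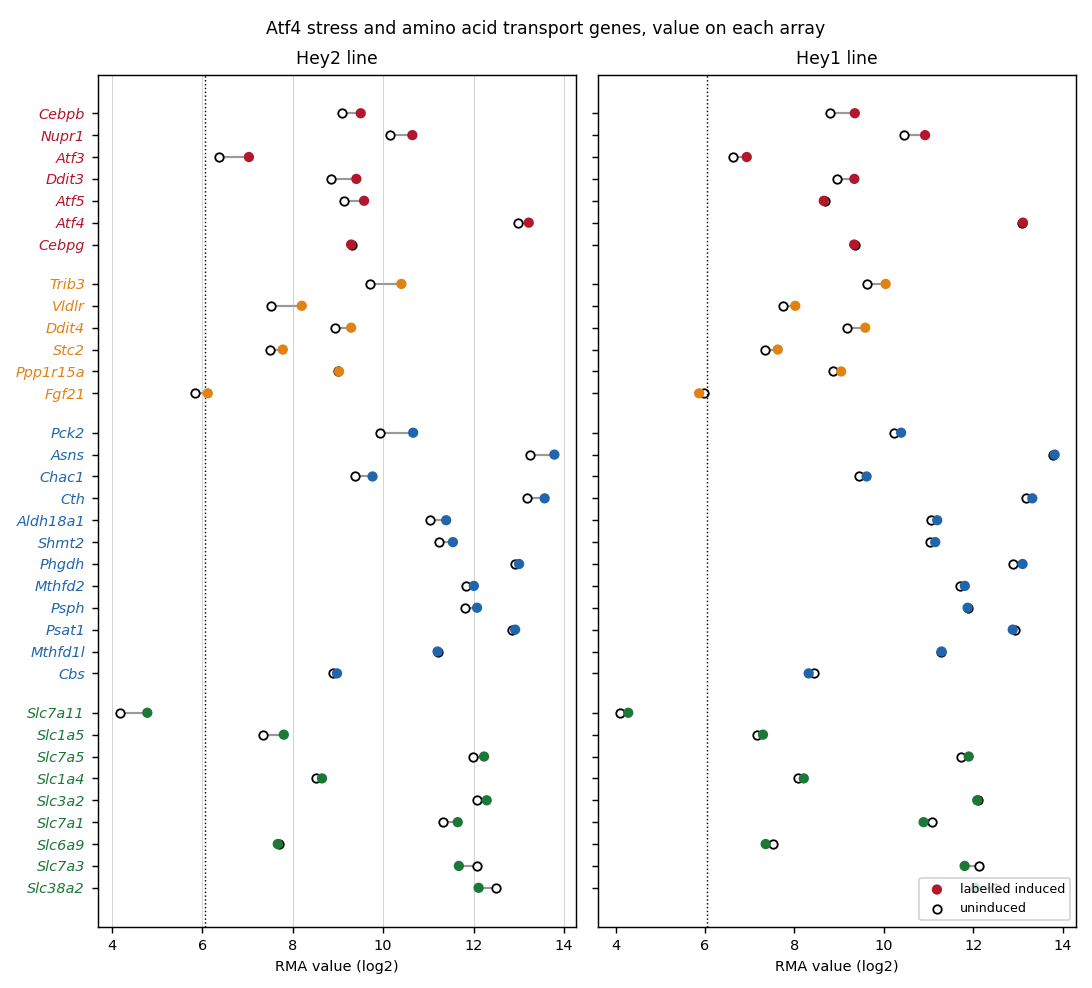
Value of each of the 34 genes on each array (x axis, log2 RMA value), Hey2 line left and Hey1 line right, with filled points for the array labelled induced and open points for the uninduced array, genes coloured and grouped by role. The dotted line is the level filter of 6.05. Trib3 shows a visible shift to the right in both lines, at 10.40 against 9.71 in the Hey2 line, while Slc38a2 shifts to the left, at 12.11 against 12.50.

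The size of these shifts can be set beside the bacterial and phage transcripts spiked into every hybridisation mix. Over their 18 probe sets the difference ran from -0.08 to 0.29 in the Hey2 line, with a median of 0.07, and from -0.20 to 0.06 in the Hey1 line, with a median of -0.01. These controls carry the spread of the hybridisation alone, not that between cell samples. The members' median of 0.30 in the Hey2 line lay at the upper end of that range, and their median of 0.13 in the Hey1 line lay above it. Many single members lay inside the Hey2-line range, among them Psph and Slc7a5, and others such as Trib3 and Pck2 lay outside. The Atf4 probe set used lay inside both ranges, and its second probe set above the filter lay outside that of the Hey1 line. Both uninduced arrays give a second yardstick. Set against the uninduced Hey1 line, the uninduced Hey2 line had a median difference of -0.005 over the members, 17 of 34 were positive where 55% of all genes were, 3 were 1.25-fold higher and 1 lower, where 14.2% and 10.8% of all genes were, and 0 were 1.5-fold higher or lower, where 3.36% and 3.42% were. The largest such gap belonged to the asparagine synthetase gene Asns, at -0.53.

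The differences of both lines can be read together, since the lines share no array. Of the 34 members, 22 were higher in both lines, where 25.6% of all genes were, and 4 were lower in both (Cebpg, Slc7a3, Slc38a2 and Slc6a9), where 34.3% were. The other 8 had opposite signs, where 7265 of all 18194 genes did. At 1.25-fold in both lines stood Trib3, Ddit3, Cebpb, Nupr1 and Ddit4, 5 members where 2.39% of all genes did so. The 34 genes are not independent and were normalised together; across them Pearson's r between the lines' differences was 0.69 and Spearman's rho was 0.63, against 0.32 and 0.26 over all genes. The Hey2-line difference was the more positive for 27 of the 34 members, where this held for 46.4% of all genes. The median of that gap was 0.19 on the log2 scale over the members and -0.02 over all genes, and it has no test.

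**Figure D2:**
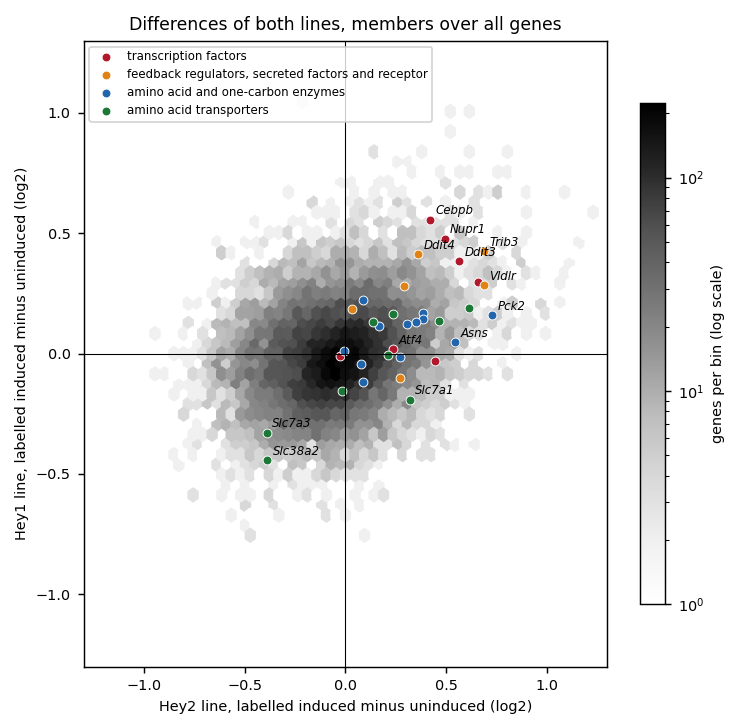
Difference labelled induced minus uninduced (log2) in the Hey2 line (x axis) against that in the Hey1 line (y axis), with all genes as grey bins on a log count scale and the 34 members as points coloured by role. A further 70 genes lie beyond the axes, which end at 1.3. The upper right holds Trib3, Ddit3, Nupr1 and Cebpb, and Slc38a2 and Slc7a3 lie at the lower left.

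The response common to the lines was fitted with limma over the 11551 genes past the level filter, blocked by line. The fit takes Hey1 and Hey2 induction for repeats of a single treatment. Its standard errors (SE) are moderated, which means drawn towards a spread estimated over all genes fitted. They do not measure the gap between the lines alone. With 1 residual degree of freedom per gene, 0 genes passed a Benjamini-Hochberg adjusted p of 0.05, and the lowest adjusted p of a member was 0.240, that of Nupr1. At an unadjusted p of 0.05, 10 of the 32 members fitted were higher (Ddit3, Atf3, Cebpb, Nupr1, Pck2, Chac1, Trib3, Ddit4, Stc2 and Vldlr), where 7% of all genes were. Slc7a3 and Slc38a2 were the 2 lower ones, where 6.48% of all genes were. These counts were 6 and 2 without the line block, a fit whose share over all genes at that p was not counted. Fewer members passed with any 1 array left out, which also drops the block and leaves a single array in a group. The fewest passed when an array of the Hey2 line was left out. With the trended, outlier-robust prior of limma, adjusted p under 0.05 held for 6 members higher (Cebpb, Cth, Ddit3, Ddit4, Nupr1 and Trib3) and 2 lower (Slc7a3 and Slc38a2), where 1.95% of all genes were called higher and 1.64% lower. The calls of that fit rest on the prior, since each gene adds a single degree of freedom of its own.

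The start sites of the members were searched for the composite site that Atf4 and C/EBP factors bind. RefSeq promoter windows of GRCm38.p6, from 250 bases before to 50 after a start, were at hand for 31 of the 35 genes, in 37 windows. The strict form searched was TGATGCAA and the loose form TGATGNAA, both strands, and the strict form is a subset of the loose form. The loose form was present for 11 of the 31 genes, 35.5%, against 4.51% of all 27025 genes with a window. The strict form was present for 8 of them, 25.8%, against 1.03%. The E-box CACGTG, a sequence that Hey proteins are known to bind, was present for 4 of the 31 (Fgf21, Nupr1, Cbs and Aldh18a1), 12.9% against 8.09%. The 10 measured genes with the loose form (Asns, Atf3, Chac1, Fgf21, Nupr1, Pck2, Slc1a4, Slc7a11, Trib3 and Vldlr) had differences from 0.14 to 0.73 in the Hey2 line, with a median of 0.58, and 9 of 10 were positive in the Hey1 line, with a median of 0.18. The 20 measured genes whose windows lack these letters had a median of 0.22 in the Hey2 and 0.02 in the Hey1 line. These are descriptions of letters and values, since sites outside the windows were not searched and the members were chosen as genes of the Atf4 response.

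The 5 windows shown are those with the loose form whose genes passed the level filter and had the largest mean difference of both lines. Each runs from 250 bases before to 30 after the start on the strand of the gene, and capitals mark the site, which reads in the reverse orientation in all 5. Trib3 lies at chr2:152344031-152344310 (minus strand), with the site in the transcribed part, from position 15 on. Vldlr lies at chr19:27216770-27217049 (plus strand), Nupr1 at chr7:126625441-126625720 (minus strand), Atf3 at chr1:191183304-191183583 (minus strand) and Pck2 at chr14:55540016-55540295 (plus strand).
Trib3: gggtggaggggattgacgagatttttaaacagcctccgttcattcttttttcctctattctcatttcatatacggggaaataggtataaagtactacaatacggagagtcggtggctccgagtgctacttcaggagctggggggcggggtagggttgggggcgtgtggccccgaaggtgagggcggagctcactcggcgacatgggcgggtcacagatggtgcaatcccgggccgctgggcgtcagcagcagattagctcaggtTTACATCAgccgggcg
Vldlr: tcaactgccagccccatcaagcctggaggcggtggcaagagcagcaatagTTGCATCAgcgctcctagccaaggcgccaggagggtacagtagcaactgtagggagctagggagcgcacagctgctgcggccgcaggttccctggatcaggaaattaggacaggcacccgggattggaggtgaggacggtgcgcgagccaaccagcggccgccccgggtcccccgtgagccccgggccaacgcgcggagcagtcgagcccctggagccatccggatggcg
Nupr1: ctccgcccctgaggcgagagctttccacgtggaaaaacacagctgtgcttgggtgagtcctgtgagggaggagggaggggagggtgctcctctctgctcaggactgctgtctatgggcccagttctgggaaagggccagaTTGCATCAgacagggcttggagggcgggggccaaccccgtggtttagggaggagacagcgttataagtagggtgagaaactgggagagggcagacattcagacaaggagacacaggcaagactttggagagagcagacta
Atf3: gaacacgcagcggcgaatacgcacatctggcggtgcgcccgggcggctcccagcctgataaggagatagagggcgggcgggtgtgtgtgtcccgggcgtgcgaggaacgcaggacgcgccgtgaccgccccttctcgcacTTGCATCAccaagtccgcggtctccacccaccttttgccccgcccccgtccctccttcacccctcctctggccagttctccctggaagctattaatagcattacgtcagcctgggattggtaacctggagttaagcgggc
Pck2: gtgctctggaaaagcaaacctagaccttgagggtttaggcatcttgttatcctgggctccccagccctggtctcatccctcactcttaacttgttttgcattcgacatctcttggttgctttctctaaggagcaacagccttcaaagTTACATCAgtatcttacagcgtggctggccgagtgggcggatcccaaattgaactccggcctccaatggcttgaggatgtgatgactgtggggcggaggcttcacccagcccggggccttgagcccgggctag
Counted from the start, with the first transcribed base as position 1 and no position 0, the site begins at -110 in both Nupr1 and Atf3, at -103 in Pck2 and at -200 in Vldlr. Vldlr, Nupr1 and Atf3 hold the strict form, and Trib3 and Pck2 hold the loose form alone.

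Among the transcription factors, the stress factors Ddit3, Atf3, Cebpb and Nupr1 were higher in both lines, while Cebpg stood nearly still. Over the 7 factors the median difference was 0.44 in the Hey2 line, with 6 positive, and 0.30 in the Hey1 line, with 5 positive. Atf4, the factor the response is named for, read 13.22 in Hey2 induced and 12.98 in Hey2 uninduced cells, and 13.11 in Hey1 induced and 13.09 in Hey1 uninduced cells. Its differences were 0.24 in the Hey2 and 0.02 in the Hey1 line, while the second Atf4 probe set above the filter had 0.06 and 0.38, the opposite order of the lines.

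Ddit3, which encodes the pro-apoptotic bZIP protein CHOP, read 9.41 in Hey2 induced and 8.84 in Hey2 uninduced cells, and 9.34 in Hey1 induced and 8.96 in Hey1 uninduced cells. Both induced arrays lay above both uninduced arrays. The mean difference was 0.47 ± 0.09 (moderated SE, 2 lines, limma adjusted p = 0.265), and the other Ddit3 probe set had 0.27 in the Hey2 and 0.49 in the Hey1 line. Cebpb, a bZIP partner of Atf4, read 9.50 in Hey2 induced and 9.08 in Hey2 uninduced cells, and 9.35 in Hey1 induced and 8.79 in Hey1 uninduced cells, a mean difference of 0.49 ± 0.09 (moderated SE, 2 lines, limma adjusted p = 0.247). By the probe sets used, it had the largest Hey1-line difference of all members, 1.47-fold. The other Cebpb probe set had 0.35 in the Hey2 and 0.16 in the Hey1 line. Nupr1, a small stress-induced chromatin protein, read 10.65 in Hey2 induced and 10.15 in Hey2 uninduced cells, and 10.92 in Hey1 induced and 10.44 in Hey1 uninduced cells. Its differences of 0.49 and 0.48 were nearly equal, and both induced arrays lay above both uninduced arrays.

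Atf3, a bZIP factor induced by many stresses, read 7.03 in Hey2 induced and 6.38 in Hey2 uninduced cells, and 6.93 in Hey1 induced and 6.64 in Hey1 uninduced cells, close to the level filter. Its Hey2-line difference exceeded that of 98.1% of all genes. Atf5, a relative of Atf4 that is also translated under stress, had a positive difference in the Hey2 line and a slightly negative one in the Hey1 line, with 9.58 in Hey2 induced and 9.14 in Hey2 uninduced cells against 8.65 in Hey1 induced and 8.68 in Hey1 uninduced cells. Cebpg, which forms heterodimers with Atf4, had differences of -0.03 in the Hey2 and -0.01 in the Hey1 line. Its other probe set above the filter had 0.04 in the Hey2 and -0.03 in the Hey1 line. The probe set below the filter had 0.51 and 0.05.

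**Figure D3:**
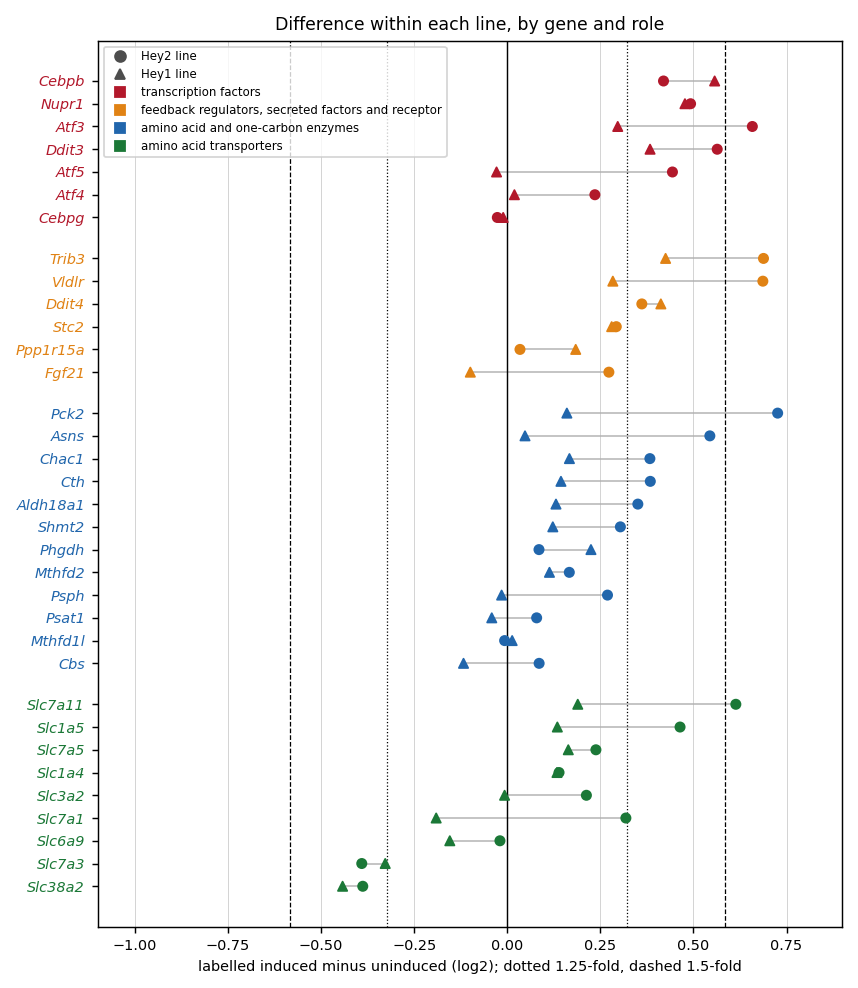
Difference labelled induced minus uninduced (x axis, log2) of each member, circles for the Hey2 line and triangles for the Hey1 line, grouped and coloured by role, with dotted lines at 1.25-fold and dashed lines at 1.5-fold. Pck2 at 0.73, Trib3 and Vldlr at 0.69, Atf3 at 0.66 and Slc7a11 at 0.61 lie past the right dashed line in the Hey2 line, and Slc7a3 and Slc38a2 lie left of the left dotted line in both lines.

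The regulators that feed back on the response were led by Trib3, a pseudokinase that binds Atf4 and restrains it. Trib3 read 10.40 in Hey2 induced and 9.71 in Hey2 uninduced cells, and 10.04 in Hey1 induced and 9.61 in Hey1 uninduced cells. Both induced arrays lay above both uninduced arrays, and the folds were 1.61 in the Hey2 and 1.34 in the Hey1 line. The mean difference was 0.56 ± 0.10 (moderated SE, 2 lines, limma adjusted p = 0.256), the largest of the members by the probe sets used. The Trib3 probe set used has probes that can match other transcripts, and the other Trib3 probe set had 0.51 in the Hey2 and 0.31 in the Hey1 line. Ppp1r15a, which recruits the phosphatase that restores eIF2alpha, moved little, with 9.03 in Hey2 induced and 8.99 in Hey2 uninduced cells and 9.04 in Hey1 induced and 8.86 in Hey1 uninduced cells.

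Ddit4, an inhibitor of the growth kinase complex mTORC1, read 9.29 in Hey2 induced and 8.93 in Hey2 uninduced cells, and 9.58 in Hey1 induced and 9.17 in Hey1 uninduced cells. Its highest value was in the Hey1 line, where the difference of 0.41 exceeded that of 96.4% of all genes. Stc2, a secreted glycoprotein, had like differences of 0.29 in the Hey2 and 0.28 in the Hey1 line. Its other probe sets, also above the filter, had 0.28 and -0.22 in the Hey2 and 0.19 and 0.16 in the Hey1 line. Fgf21, a stress hormone, lay below the level filter on average, so its differences of 0.27 in the Hey2 and -0.10 in the Hey1 line have no sure size. Vldlr, a receptor for lipoproteins and reelin, read 8.20 in Hey2 induced and 7.52 in Hey2 uninduced cells, and 8.02 in Hey1 induced and 7.74 in Hey1 uninduced cells. Of its 6 probe sets, the other one above the filter had 1.52 in the Hey2 and 0.61 in the Hey1 line, and the 4 below it ran from 0.08 to 0.58 in the Hey2 line and from -0.32 to 0.26 in the Hey1 line.

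Among the 12 enzymes, 11 were positive in the Hey2 line with a median of 0.29, and 9 in the Hey1 line with a median of 0.12. None of the 12 reached 1.25-fold in the Hey1 line. Pck2, the mitochondrial enzyme that makes phosphoenolpyruvate, had the largest Hey2-line difference of all members by the probe sets used. Its values were 10.66 in Hey2 induced and 9.94 in Hey2 uninduced cells. It read 10.38 in Hey1 induced and 10.23 in Hey1 uninduced cells, and the other Pck2 probe set had 0.84 in the Hey2 and 0.03 in the Hey1 line. Asns, which makes asparagine and is a classic reporter of amino acid shortage, read 13.78 in Hey2 induced and 13.24 in Hey2 uninduced cells, and 13.82 in Hey1 induced and 13.77 in Hey1 uninduced cells. Its low value was thus the uninduced Hey2 array, and set against the uninduced Hey1 array the Hey2 induced array differed by 0.01.

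The serine synthesis enzymes Phgdh, Psat1 and Psph act in that order. Phgdh differed by 0.09 in the Hey2 and 0.22 in the Hey1 line, Psat1 by 0.08 and -0.04 and Psph by 0.27 and -0.02. In the mitochondrial one-carbon pathway, Shmt2 differed by 0.30 in the Hey2 and 0.12 in the Hey1 line, Mthfd2 by 0.17 and 0.11 and Mthfd1l by -0.01 and 0.01. The 4 Shmt2 probe sets disagreed, from -0.42 to 0.30 in the Hey2 line. Aldh18a1, which starts proline synthesis, had all 5 probe sets positive, between 0.18 and 0.36 in the Hey2 line and between 0.11 and 0.55 in the Hey1 line.

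In transsulfuration, which makes cysteine, the step enzymes parted. Cth read 13.57 in Hey2 induced and 13.19 in Hey2 uninduced cells, and 13.32 in Hey1 induced and 13.18 in Hey1 uninduced cells, while Cbs differed by 0.09 in the Hey2 and -0.12 in the Hey1 line. Chac1, which breaks down glutathione, read 9.77 in Hey2 induced and 9.38 in Hey2 uninduced cells, and 9.61 in Hey1 induced and 9.45 in Hey1 uninduced cells. Both induced arrays lay above both uninduced arrays for Cth and for Chac1.

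The transporters had differences of both signs. In the Hey2 line 6 of 9 were positive with a median of 0.21, where 43.4% of all genes were positive. In the Hey1 line 4 of 9, or 44.4%, were positive with a median of -0.01, close to the 47.9% of all genes. The sharpest exceptions to the rest of the members were here. Slc38a2, a sodium-coupled importer of small neutral amino acids whose gene is induced by amino acid shortage, read 12.11 in Hey2 induced and 12.50 in Hey2 uninduced cells, and 12.05 in Hey1 induced and 12.49 in Hey1 uninduced cells. Both induced arrays lay below both uninduced arrays, the mean difference was -0.42 ± 0.08 (moderated SE, 2 lines, limma adjusted p = 0.265), and both other probe sets were lower in both lines. Slc7a3, a carrier of arginine and lysine, read 11.67 in Hey2 induced and 12.06 in Hey2 uninduced cells, and 11.81 in Hey1 induced and 12.13 in Hey1 uninduced cells. Its mean difference was -0.36 ± 0.08 (moderated SE, 2 lines, limma adjusted p = 0.277), and it has a single probe set.

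Slc7a1, the other carrier of arginine and lysine listed, had opposite signs in the lines, with 11.65 in Hey2 induced and 11.33 in Hey2 uninduced cells and 10.89 in Hey1 induced and 11.08 in Hey1 uninduced cells. Its second probe set above the filter repeated this with 0.29 in the Hey2 and -0.11 in the Hey1 line. The heavy chain gene Slc3a2, whose protein pairs with the light chains of Slc7a5 and Slc7a11, differed by 0.21 in the Hey2 and -0.01 in the Hey1 line, and Slc7a5, which imports large neutral amino acids in exchange for others, by 0.24 and 0.16. Slc7a11, the cystine importer, lay far below the level filter on all arrays, at 4.79 in Hey2 induced and 4.17 in Hey2 uninduced cells and at 4.28 in Hey1 induced and 4.09 in Hey1 uninduced cells, so the size of its 1.53-fold difference in the Hey2 line is uncertain.

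The neutral amino acid exchangers Slc1a5 and Slc1a4 differed by 0.46 and 0.14 in the Hey2 line, and by 0.13 each in the Hey1 line. The glycine carrier Slc6a9 differed by -0.02 in the Hey2 and -0.15 in the Hey1 line. Slc1a4 and Slc1a5 were also higher in the uninduced Hey2 line than in the uninduced Hey1 line, by 0.43 and 0.18.

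Set against each other by role, enzymes and transporters together had a lower median difference than the transcription factors in both lines. The medians were 0.24 for the 21 enzymes and transporters and 0.44 for the 7 factors in the Hey2 line, a gap of -0.21. In the Hey1 line they were 0.11 and 0.30, a gap of -0.18. Against the uninduced array of the other line the gap was -0.08 for the Hey2 induced array and -0.25 for the Hey1 induced array. The gap has no test, and the members of a role are not replicates.

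The choice of the uninduced array mattered for single genes. With the uninduced Hey1 array in place of that of the Hey2 line, 28 of the 29 positive Hey2-line members stayed positive, and Psat1 and Slc6a9 changed sign. With the uninduced Hey2 array in place of that of the Hey1 line, 18 of the 23 positive Hey1-line members stayed positive and 10 members changed sign, among them Shmt2, Mthfd2, Slc7a5, Slc1a4 and Slc1a5. Trib3, Ddit3, Cebpb, Nupr1 and Ddit4 were higher against either uninduced array, as were other members, among them Atf3, Vldlr, Pck2, Chac1 and Cth. Between the induced arrays, the Hey2 line minus the Hey1 line was largest for Atf5 at 0.92, Slc7a1 at 0.76 and Cbs at 0.66, and these 3 genes also differed between the uninduced arrays, by 0.45, 0.25 and 0.46.

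Most other probe sets of a gene moved the way of the one used. The probe sets used for Aldh18a1, Phgdh, Shmt2, Trib3 and Vldlr are of a kind whose probes may also match other transcripts. Of 39 further probe sets, from 22 genes, 33 shared the sign of the one used for the Hey2 line and 31 for the Hey1 line. Of the 31 among them above the level filter, 27 and 28 did.

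**Figure D4:**
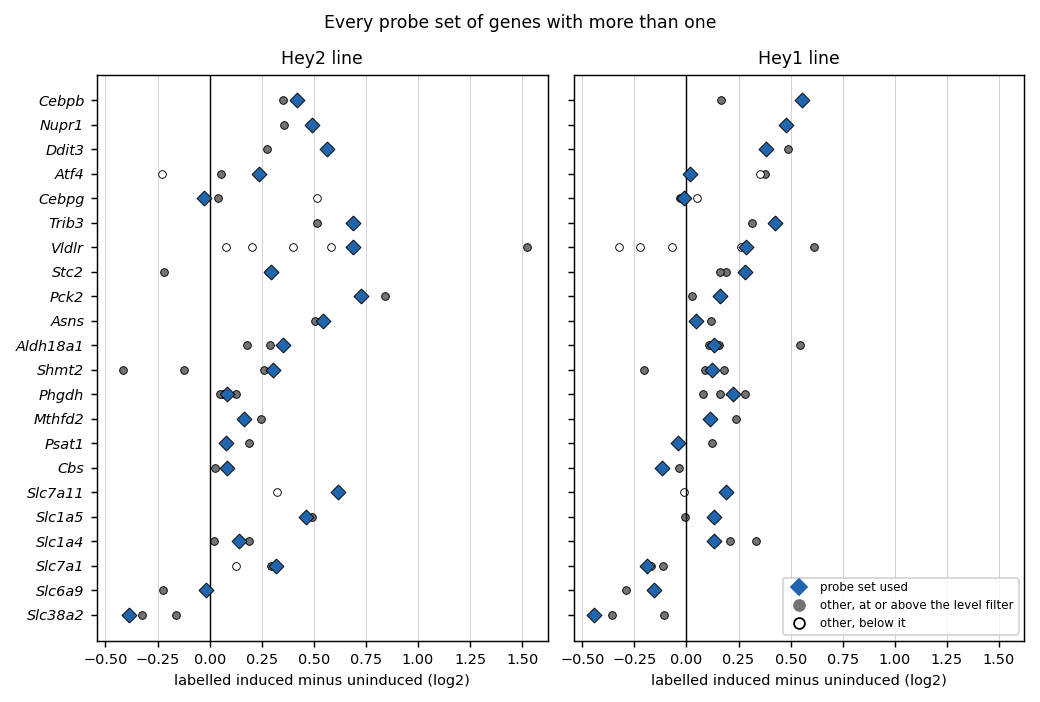
Difference labelled induced minus uninduced (x axis, log2) of every probe set for the 22 genes with more than one, Hey2 line left and Hey1 line right, with diamonds for the probe set used, grey circles for others at or above the level filter and open circles for others below it. The probe sets of Slc38a2 all lie left of 0 in both lines, and those of Shmt2 spread across 0, from -0.42 to 0.30 in the Hey2 line.

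Further genes of the pathway and of other stress programmes were followed as lists, and 0 of the genes in these lists passed the common-response limma fit at an adjusted p of 0.05. At an unadjusted p of 0.05, 4 further Atf4 targets were higher and 1 lower, 1 other amino acid transporter was higher and 1 lower, 1 endoplasmic reticulum gene was higher, 1 p53 target was higher and 4 lower, and 2 heat shock genes were higher and 1 lower. Over all genes fitted, 7% were higher and 6.48% lower at that p. With the trended and robust prior, adjusted p under 0.05 held for 2 further Atf4 targets, 1 other transporter, 1 endoplasmic reticulum gene and 1 heat shock gene on the higher side, and for 1 other transporter and 2 p53 targets on the lower side. That fit called 1.95% of all genes higher and 1.64% lower. The 15 measured genes of the eIF2alpha kinases and eIF2 machinery had medians of 0.04 in the Hey2 and -0.05 in the Hey1 line. Of these, the eIF2B subunit gene Eif2b3 differed by 0.41 and 0.06, and Impact, which restrains the kinase sensing uncharged tRNA, by -0.36 and -0.07. The 19 cytosolic aminoacyl-tRNA synthetase genes, of which several are described as Atf4 targets, had medians of 0.05 in the Hey2 and -0.01 in the Hey1 line, and 0 reached 1.25-fold in either. Of all genes, 8.61% in the Hey2 and 6.36% in the Hey1 line were at least 1.25-fold higher. By the mean of both lines the largest were Eprs, at 0.31 and 0.07, and Rars, at 0.22 and 0.10.

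The 19 further Atf4 targets had medians of 0.09 in the Hey2 and 0.07 in the Hey1 line. Of them 3 were at least 1.25-fold higher in each line, where 8.61% of all genes in the Hey2 and 6.36% in the Hey1 line were. Cebpd, another C/EBP factor, read 8.14 in Hey2 induced and 7.36 in Hey2 uninduced cells, and 8.48 in Hey1 induced and 7.05 in Hey1 uninduced cells, and Rab32, a small GTPase gene, differed by 0.56 and 0.95. These were the largest of a list of both signs. In each line 11 of the 19 were positive, where 43.4% of all genes in the Hey2 and 47.9% in the Hey1 line were. The 22 other amino acid transporters had medians of -0.14 in the Hey2 and 0.01 in the Hey1 line. Among them the neutral amino acid carrier Slc38a4, of the same family as Slc38a2, was higher, by 0.30 and 0.62, and the taurine carrier Slc6a6 was lower, by -0.38 and -0.67.

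Neighbouring stress programmes were measured in the same way. The 20 endoplasmic reticulum chaperone and unfolded protein response genes had medians of 0.04 in the Hey2 and 0.07 in the Hey1 line, with Hsp90b1 at 0.39 and 0.21 and the sensor gene Ern1 at 0.10 and 0.23. The 10 mitochondrial chaperone and protease genes had medians of 0.06 and -0.04, with the protease genes Yme1l1 at 0.31 and -0.04 and Clpx at 0.11 and 0.13. The 11 p53 targets had medians of -0.09 and -0.11, with the apoptosis gene Pmaip1 at 0.69 and 1.48 and Perp at -0.92 and -0.38. Over the 10 p53 targets past the level filter the medians were -0.12 and -0.19, in the Hey1 line farther from 0 than the members' 0.13. The 8 cytosolic heat shock genes had medians of 0.03 and 0.02, with Hspa1a at 0.83 and 2.44 and Hspa1b at 0.47 and 0.81. The 10 housekeeping genes had medians of -0.01 and -0.03, with Gusb at 0.18 and 0.17 and Pgk1 at -0.17 and -0.09.

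**Figure D5:**
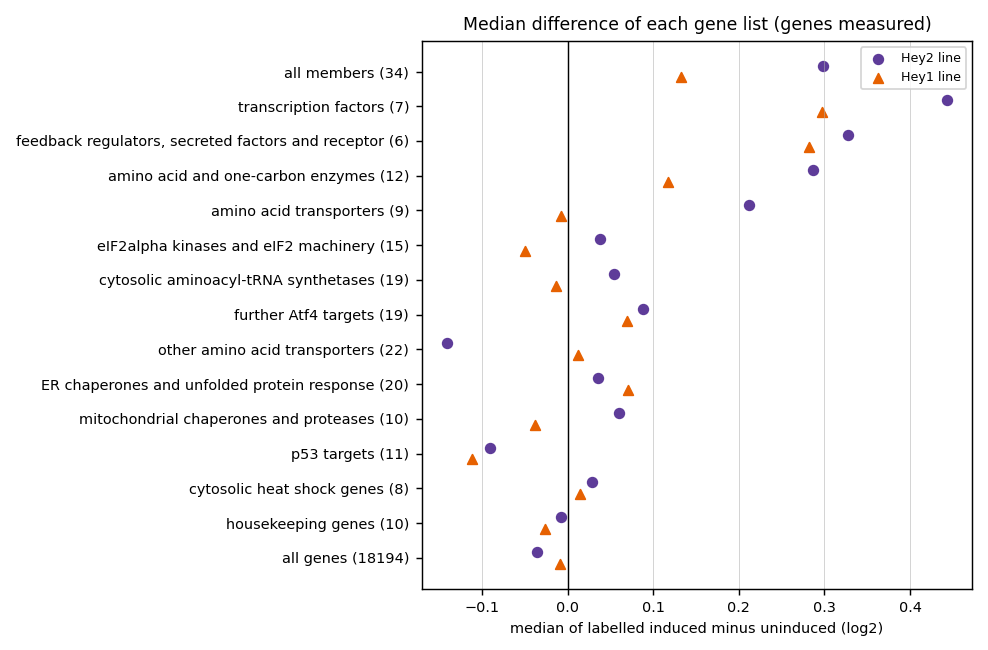
Median difference labelled induced minus uninduced (x axis, log2) of each gene list, with the number of genes measured in brackets, circles for the Hey2 line and triangles for the Hey1 line. The transcription factors lie farthest right, at 0.44 in the Hey2 and 0.30 in the Hey1 line, and all genes together lie at -0.04 and -0.01.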

How the data were processed

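Total RNA of 4 cell samples was hybridised to single-colour Affymetrix arrays. The authors deposited 1 log2 value per probe set and array, and the submitters' processing notes name RMA. No source used here gives the RMA version, chip description or build. Values from 2.67 to 15.2 place them on a log2 scale. Sorted arrays differed by at most 0.0024, which hides any shift shared by all genes. Sequencing depth has no counterpart here. Of 45101 probe sets, 34958 had 1 gene symbol, 932 several and 9211 none, and only the first kind was used. The symbols of all 34 members are in RefSeq's table for GRCm38.p6.

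Groups came from the sample titles. The labels do not say if cultures were separate, so p-values reflect spread among these 4 samples, possibly technical. The fit used limma 3.58.1 in R 4.3.3 (lmFit, eBayes, line as a block, Benjamini-Hochberg over 11551 genes) and was tested on simulated data, where it recovered few changes as small as those of the members. Summaries over members used no level filter, since a filter can favour genes that changed. Python 3.11.15 with pandas 2.3.3 and numpy 2.4.6 did the rest. The members and lists were chosen with earlier results of these data known. Every member is named, and from each pathway list the 2 genes with the largest mean difference of both lines and any gene past 2-fold. Sox7 and Sox1 were named after their values were seen. Stem cell, fibroblast, endoderm, and mesoderm and neural markers were checked. Alternatives were level filters, cyclic loess, median centring, an offset of 32, other choices of probe set, the other line's uninduced array, another prior, no line block and leaving out an array.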

Additional observations from a re-analysis of the deposited data

Results flagged for a closer look

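In 8 members the difference had opposite signs in the lines, with 1 pair of arrays in each, and this was not tested. The Hey2-line difference minus the Hey1-line difference was 0.51 for Slc7a1, 0.47 for Atf5, 0.37 for Fgf21, 0.28 for Psph, 0.22 for Slc3a2, 0.20 for Cbs, 0.12 for Psat1 and -0.020 for Mthfd1l. In 7 of the 8 the Hey2 line was positive and the Hey1 line negative, and Mthfd1l was the exception. Of all 18194 genes, 7265 had opposite signs, 3224 with that pattern and 4041 with the opposite one. The share of the 34 members with that pattern was thus near that of all genes. Some small differences changed sign with the processing. With the mean of probe sets Psat1 turned positive in the Hey1 line, at 0.04. With median centring Slc3a2 turned positive in the Hey1 line, at 0.001, and Mthfd1l in the Hey2 line, at 0.03. Cebpg and Slc6a9, lower in both lines above, turned positive in the Hey2 line with median centring, at 0.009 and 0.016. With the mean of probe sets Cebpg turned positive in both lines, at 0.176 in the Hey2 and 0.003 in the Hey1 line. With cyclic loess Slc6a9 turned positive in the Hey2 line, at 0.018.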

How the results depend on the processing

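With 1 array per group, no difference within a line has an error, and dim genes such as Slc7a11 and Fgf21 are limited by their signal over background. The members' median stayed positive under all alternatives tried, between 0.26 and 0.33 in the Hey2 line and between 0.07 and 0.14 in the Hey1 line, the lowest Hey1-line value being that against the uninduced array of the other line. The gap of enzymes and transporters to transcription factors stayed negative, but was -0.079 for the Hey2 induced array against the uninduced Hey1 array. The median between the uninduced arrays, -0.005, turned to 0.0077 with cyclic loess, 0.013 with the mean of probe sets and 0.012 with every probe set on its own, all close to 0. The 5 members at 1.5-fold in the Hey2 line, and the 0 in the Hey1 line, became 15 and 5 at 1.25-fold. In the Hey2 line 2 were past 1.5-fold with the filter at the 75th percentile, 3 with the offset (Pck2, Trib3 and Vldlr) and 3 with the mean of probe sets (Atf3, Pck2 and Trib3). In the Hey1 line 1 probe set was with every probe set on its own, and 2 members against the uninduced array of the other line. Trib3 was among them in the Hey2 line under all 8 alternatives to the probe set, scale, filter or reference array. In the common-response fit, where 0 genes passed, 18 genes passed with the filter at the 75th percentile, none of them a member, and 415 genes, 8 of them members, with the trended and robust prior. Leaving out each array in turn, with no block left and the lone array taken to vary like the others, gave 0 to 1 genes and 0 members. The cause of these changes was not tested. The labels give no replicate numbers, and the fit paired the arrays of a line through its block, without which 0 genes passed too.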
